A study of Homo sapiens with 60 samples.

Results

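Polyamines are made, broken down and held in balance by the products of 9 genes that were followed here across 3 breast cell lines and 4 treatments: the synthesis enzymes ODC1, AMD1, SRM and SMS, the catabolic enzymes SAT1 and SMOX, and the antizyme system of OAZ1, OAZ2 and AZIN1. The genes were taken by their platform symbol, with every probe set that carries that symbol alone, which gave 9 of 19775 genes with a value and 18 of 54675 probe sets. They were chosen by pathway membership with earlier results of these same arrays known, so measured levels and drug differences of these arrays were in view; no comparison and no threshold is part of the choice, and the adjusted p-values below describe these arrays without being independent support for having chosen these genes. Each gene is described by its brightest probe set unless another is named.

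RNA was hybridised to 60 single-colour Affymetrix arrays, 5 for each of 12 groups, from what the series describes as independent experiments, numbered 1, 2, 3, 4 and 6. SKBR3, a breast adenocarcinoma line with constitutively high HER-2, C5.2, a line derived from HB4a by transfection with a full-length HER-2 cDNA, and HB4a, a line from normal breast epithelium, were each given doxorubicin at 30 nM, rapamycin at 20 nM, both drugs at those doses, or the DMSO vehicle. Doxorubicin is a DNA-damaging anthracycline and rapamycin an inhibitor of the mTOR kinase complex 1. Groups were read from the source names; the abbreviation that marks the vehicle arrays in the titles is given to the drug pair in the treatment text. The time in drug was not given in the sources used here. C5.2 stands for 1 derived line, its promoter was not named, and HB4a and C5.2 were kept with insulin and hydrocortisone and seeded more thinly than SKBR3, whose medium named neither hormone, so that line and culture cannot be told apart. Values are log2 levels on the authors' normalized scale. ERBB2, the gene of HER-2, averaged 11.48 in SKBR3, 12.06 in C5.2 and 6.67 in HB4a in vehicle.

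Putrescine, spermidine and spermine are small cations that bind nucleic acids and are needed for growth. ODC1 makes putrescine from ornithine and AMD1 makes the aminopropyl donor, with which SRM and then SMS extend putrescine to spermidine and spermine; SAT1 acetylates spermidine and spermine for export or oxidation, and SMOX oxidises spermine back to spermidine with release of hydrogen peroxide. Antizymes bind ODC1 protein and pass it to the proteasome, and antizyme inhibitor takes the antizyme away. Much of this control acts on translation and on protein turnover, whereas the arrays measure RNA only. In RNA from whole cultures, a change in every cell and a change in the share of cells with the RNA cannot be told apart.

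The promoters of 4 enzymes whose RNA was called with rapamycin or with both drugs are shown, since the data bear on their RNA; SMOX, also called, had no window in the table. Each runs from 250 bases before to 50 bases after a start site annotated by RefSeq on GRCh38.p14, read 5′ to 3′ on the gene's strand; capitals mark CACGTG, the E-box read by MYC with MAX, and CCAAT in either orientation. The windows are SAT1 at chrX:23782923-23783222 (plus strand), AMD1 at chr6:110874535-110874834 (plus), ODC1 at chr2:10447963-10448262 (minus) and SRM at chr1:11059969-11060268 (minus).
SAT1: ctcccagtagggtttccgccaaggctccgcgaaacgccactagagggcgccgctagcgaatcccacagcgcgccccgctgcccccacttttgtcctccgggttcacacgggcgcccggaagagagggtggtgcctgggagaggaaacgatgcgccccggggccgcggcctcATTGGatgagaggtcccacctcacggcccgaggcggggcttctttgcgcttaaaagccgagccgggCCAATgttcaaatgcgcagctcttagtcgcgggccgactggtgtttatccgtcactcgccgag
AMD1: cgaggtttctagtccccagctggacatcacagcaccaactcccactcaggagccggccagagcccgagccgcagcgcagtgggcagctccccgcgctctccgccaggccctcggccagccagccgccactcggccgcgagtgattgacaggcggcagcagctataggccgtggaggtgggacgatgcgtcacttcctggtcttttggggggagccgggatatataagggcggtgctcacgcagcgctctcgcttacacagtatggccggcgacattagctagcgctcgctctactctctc
ODC1: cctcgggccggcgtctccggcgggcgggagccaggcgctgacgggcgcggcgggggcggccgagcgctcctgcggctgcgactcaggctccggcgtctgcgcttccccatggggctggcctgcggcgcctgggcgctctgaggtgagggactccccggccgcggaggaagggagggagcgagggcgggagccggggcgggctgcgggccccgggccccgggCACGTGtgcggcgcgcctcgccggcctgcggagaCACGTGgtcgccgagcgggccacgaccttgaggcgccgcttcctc
SRM: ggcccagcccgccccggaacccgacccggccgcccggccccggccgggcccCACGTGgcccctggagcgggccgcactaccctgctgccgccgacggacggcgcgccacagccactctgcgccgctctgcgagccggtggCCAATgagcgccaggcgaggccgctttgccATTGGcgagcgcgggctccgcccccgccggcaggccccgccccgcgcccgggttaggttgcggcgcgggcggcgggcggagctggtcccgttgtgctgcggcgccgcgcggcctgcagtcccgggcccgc
The ODC1 window held CACGTG at -29 and 6 relative to the start site, the SRM window held it at -199, and the SAT1 and AMD1 windows did not hold these letters. CCAAT lay at -79 and -13 in SAT1 and at -110 and -80 in SRM. Over the 35116 promoters of the same length in the table, 7.26% held CACGTG and 34.6% held CCAAT on either strand. The other motifs searched on both strands were TGACNNNGC, in 13.3% of promoters, and GTAAACA, in 3.42%, and neither was in these 4 windows. RefSeq lists 2 windows for ODC1 and 3 for AMD1, of which 1 each is shown. The ODC1 window not shown, at chr2:10448278-10448577, lies upstream of the printed one and holds the gene's annotated 5′ end at 10448327. It held no CACGTG and held TGACNNNGC at -5. Of the AMD1 windows not shown, 1 held CCAAT at -21. In all, 7 of the 9 genes had a window in the table.

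Array medians lay between 1.41 and 1.71, no arrays held identical values and the highest correlation of 2 arrays was 0.996. GDF15, a stress gene induced by DNA damage, rose with doxorubicin by 2.93 in C5.2 and 2.77 in HB4a and with both drugs by 3.30 and 2.71, all against the arrays read as vehicle, and IRS2 rose with rapamycin by 1.28 and 1.20 in the same lines. In SKBR3 GDF15 and IRS2 did not pass the filter on dim genes, with vehicle means of 2.94 and 1.49, so they gave no check of the drugs there. The mean over 7 luminal markers was 8.29 to 9.01 in SKBR3, 5.88 to 6.86 in C5.2 and 7.22 to 7.67 in HB4a, and over 4 basal markers 1.40 to 2.75, 4.21 to 5.46 and 6.37 to 7.11, so the lines' epithelial markers moved with the line differences, and their part in them was not tested. In SKBR3 the luminal mean was 8.67 to 9.01 with rapamycin, against 8.37 to 8.78 in vehicle, and its part in the SAT1 and AMD1 differences was not tested. With both drugs it was 5.88 to 6.33 in C5.2, against 6.35 to 6.86 in vehicle, with 3 of 4 tested markers lower and no overlap, and 7.22 to 7.53 in HB4a, against 7.48 to 7.66 in vehicle, with 3 of 5 lower; its part in the SAT1, SRM, OAZ1 and SMOX differences there was not tested. Leukocyte markers averaged 0.75 to 1.99 and endothelial markers 1.26 to 2.28 over all groups. SKBR3 vehicle array 3 held RNA that the other SKBR3 arrays lacked: LGALS3 at 6.61 against 1.19 on average in the other vehicle arrays, NNMT at 6.22 against 0.72 and SPARC at 3.46 against 0.36, against means of 9.53, 9.53 and 9.24 in C5.2 vehicle and 10.87, 10.37 and 9.33 in HB4a vehicle. Their part in the values of that array was not tested. Without it the AMD1 difference in SKBR3 was -1.01 with rapamycin and -1.15 with both drugs, and the SMOX difference was -3.10 from C5.2 and -2.52 from HB4a. Earlier work on these arrays also found experiment 1 of HB4a and of SKBR3, experiment 2 of C5.2 and HB4a rapamycin array 4 to stand apart. Without all of these, SAT1 in SKBR3 gave 1.42 with rapamycin and 1.48 with both drugs and AMD1 gave -1.01 and -1.0002; 3 calls were lost, SAT1 with doxorubicin in HB4a at 0.45 (limma adjusted p = 0.0503), OAZ1 in SKBR3 against HB4a at 0.12 (limma adjusted p = 0.0577) and the difference of the AMD1 rapamycin response between SKBR3 and C5.2 at -1.10 (limma adjusted p = 0.0562). 7 differences passed without them: SMS in HB4a with doxorubicin (-0.44; limma adjusted p = 0.0189) and with both drugs (-0.39; 0.0309), SAT1 in C5.2 with doxorubicin (0.57; 0.00891), SMOX in C5.2 with both drugs against vehicle (-0.45; 0.049) and against doxorubicin (-0.48; 0.0492), AZIN1 in C5.2 against HB4a (0.85; 0.00164), and the SAT1 rapamycin response in SKBR3 against C5.2 (0.66; 0.0267).

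SAT1 and AMD1 moved most, in opposite directions and under the same drug. With rapamycin in SKBR3, SAT1 RNA was 2.56-fold higher and AMD1 RNA 2.01-fold lower than in vehicle, and with both drugs the folds were 2.68-fold higher and 2.22-fold lower. SAT1 also rose with rapamycin in C5.2, with both drugs in all 3 lines and with doxorubicin in HB4a. SRM fell with both drugs in C5.2 and HB4a, ODC1 fell with rapamycin in SKBR3, SMOX fell with both drugs in HB4a, and the antizymes OAZ1 and OAZ2 fell with rapamycin in C5.2. No drug comparison passed the test for SMS or AZIN1. These calls are limma tests with Benjamini-Hochberg adjustment over all genes that passed a filter (log2 above 5 on at least 5 arrays of the fit), called at an adjusted p under 0.05.

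**Figure D1:**
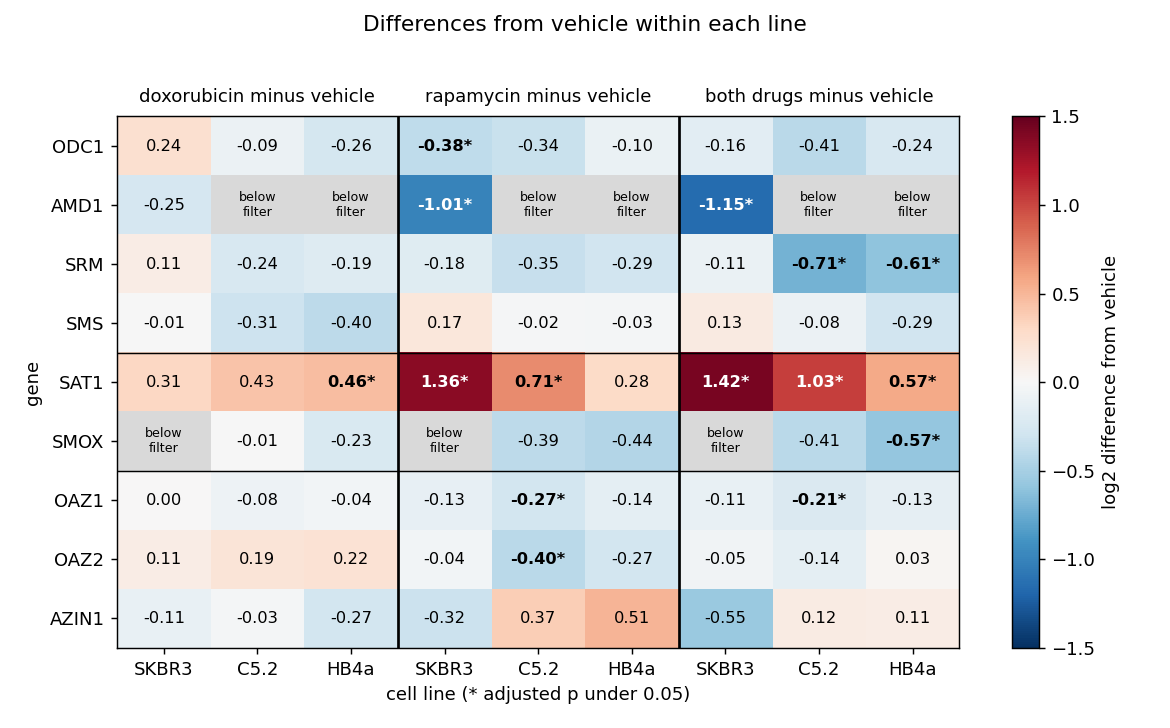
Log2 difference from vehicle for the 9 genes (rows) in SKBR3, C5.2 and HB4a (columns) under doxorubicin, rapamycin and both drugs; colour and number give the difference, an asterisk marks an adjusted p under 0.05, and grey cells did not pass the filter on dim genes. The SAT1 row is positive in every cell, up to 1.42 in SKBR3 with both drugs, and the AMD1 cells of SKBR3 reach -1.15.

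Of 8 genes tested in each line, doxorubicin alone changed SAT1 in HB4a. In SKBR3 no member passed, against 0.669% of all genes higher and 0.167% lower. In C5.2 none passed either, against 2.84% higher and 0.413% lower. In HB4a 1 member was higher and none lower, against 8.66% of all genes higher and 2.77% lower, so the share of members is near that of all genes. Rapamycin changed 1 member upward and 2 downward in SKBR3 (7.48% of all genes higher and 10.8% lower), 1 upward and 2 downward in C5.2 (2.83% higher, 14.6% lower) and none in HB4a (2.08% higher, 1.1% lower). Both drugs together changed 1 upward and 1 downward in SKBR3 (8.35% higher, 13.6% lower), 1 upward and 2 downward in C5.2 (6.42% higher, 14.6% lower) and 1 upward and 2 downward in HB4a (10.9% higher, 6.49% lower). With 8 genes tested, 1 call more or fewer would move a member share by more than most of these background shares, so nothing particular to the members is read from the counts.

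Arrays with the same experiment number deviated together in most pairs of groups within a line, so the number was also fitted as a block; blocked values are given where the numbers pair the arrays compared and the block alters a call. Vehicle and both drugs were not paired in C5.2 or in HB4a. With the block, doxorubicin changed 2 members in SKBR3 (5% of all genes in either direction), 2 in C5.2 (17.4%) and 3 in HB4a (32.7%). Rapamycin changed 6 in C5.2 (44.2%) and 3 in HB4a (16.3%), and both drugs changed 5 in SKBR3 (50.5%). The number of calls over all genes was larger too under the block, so these member counts are to be read against those larger shares.

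ODC1, ornithine decarboxylase, commits ornithine to putrescine. In SKBR3 its level with rapamycin was 8.95, 8.65, 8.62, 8.70 and 8.69 in experiments 1, 2, 3, 4 and 6, against 9.39, 9.08, 9.01, 8.88 and 9.14 in vehicle. Every experiment was lower with rapamycin than in its own vehicle array, while the groups overlapped through rapamycin array 1. The difference was -0.38 ± 0.11 (SE; n = 5 each; limma adjusted p = 0.0209), and it missed the threshold without vehicle array 1 or without rapamycin array 3 (highest limma adjusted p = 0.0687). Without vehicle array 3, described above, it was -0.40 (limma adjusted p = 0.0286).

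With both drugs ODC1 was 9.20, 8.92, 8.73, 8.88 and 8.997 in SKBR3, against 9.71, 9.34, 9.11, 9.20 and 9.37 with doxorubicin alone. The fall relative to doxorubicin was -0.40 ± 0.11 (SE; limma adjusted p = 0.0143), close to the size of the rapamycin difference, and it too was seen in every experiment. Relative to vehicle the pair gave -0.16 ± 0.11 (limma adjusted p = 0.314), and doxorubicin alone gave 0.24 ± 0.11 (limma adjusted p = 0.639). Without vehicle array 1 the pair gave -0.08, and without doxorubicin array 1 doxorubicin gave 0.15. Blocked on experiment number, the limma adjusted p was 0.0217 for both drugs, 0.0085 for doxorubicin and 0.0174 for both drugs against rapamycin.

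In C5.2, ODC1 averaged 9.37 ± 0.23 with rapamycin, 9.30 ± 0.22 with both drugs, 9.62 ± 0.36 with doxorubicin and 9.71 ± 0.21 in vehicle (SD, n = 5 each). The rapamycin difference of -0.34 ± 0.15 (SE) had a limma adjusted p of 0.133 without and 0.0004 with the block, and both drugs gave -0.41 ± 0.15 (limma adjusted p = 0.0608). In HB4a the means were 8.92 with doxorubicin, 9.07 with rapamycin, 8.93 with both drugs and 9.17 in vehicle. No HB4a difference passed the test, the largest being -0.26 ± 0.12 (SE) with doxorubicin (limma adjusted p = 0.167).

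AMD1, S-adenosylmethionine decarboxylase, supplies the aminopropyl groups for spermidine and spermine. In SKBR3 it was 5.73, 5.02, 5.4998, 5.94 and 4.96 with rapamycin and 4.96, 5.07, 5.43, 5.97 and 5.001 with both drugs, against 6.07, 5.84, 6.27, 6.56 and 6.21 with doxorubicin and 6.66, 6.09, 6.43, 6.73 and 6.29 in vehicle. All 10 arrays with rapamycin, alone or combined, lay below all 5 vehicle arrays. The difference from vehicle was -1.01 ± 0.21 (SE; limma adjusted p = 0.00171) with rapamycin, -1.15 ± 0.21 (limma adjusted p = 0.000561) with both drugs and -0.25 ± 0.21 (limma adjusted p = 0.9997) with doxorubicin. Both drugs against doxorubicin gave -0.90 ± 0.21 (limma adjusted p = 0.00415). A separate AMD1 probe set fell by 0.84 on the log2 scale with rapamycin and by 0.90 with both drugs, so both probe sets of the gene moved the same way.

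AMD1 lay below the filter in C5.2 and HB4a and was not tested there. Its means in C5.2 were 4.31 with doxorubicin, 4.78 with rapamycin, 4.12 with both drugs and 4.82 in vehicle. In HB4a they were 3.70 with doxorubicin, 4.28 with rapamycin, 3.58 with both drugs and 4.14 in vehicle. The rapamycin difference of this probe set was -0.03 in C5.2 and 0.15 in HB4a, and its lower means were those with doxorubicin and with both drugs. The separate AMD1 probe set gave -0.42 in C5.2 and -0.25 in HB4a with rapamycin, against -0.38 and -0.17 with doxorubicin. With both drugs it gave -0.80 and -0.92. The probe sets thus disagreed on rapamycin, in size in C5.2 and in sign in HB4a, and no rapamycin effect on the gene is read there. With no filter, C5.2 with both drugs gave -0.69 ± 0.20 (SE; limma adjusted p = 0.0365).

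SRM, spermidine synthase, fell with both drugs in the 2 lines of the HB4a lineage. In C5.2 it was 6.82, 6.96, 6.23, 6.32 and 6.89 with both drugs, against 6.98, 7.51, 7.28, 7.56 and 7.42 in vehicle. In HB4a it was 6.68, 6.86, 7.002, 7.13 and 7.08 with both drugs, against 7.53, 7.86, 7.26, 7.49 and 7.65 in vehicle. In neither line did the groups overlap. The differences were -0.71 ± 0.19 (SE; limma adjusted p = 0.0108) in C5.2 and -0.61 ± 0.13 (limma adjusted p = 0.00323) in HB4a, that is 1.64-fold and 1.52-fold lower. Each drug alone gave smaller differences that did not pass: -0.24 with doxorubicin and -0.35 with rapamycin in C5.2, and -0.19 and -0.29 in HB4a. In SKBR3 the means were 8.34 with doxorubicin, 8.05 with rapamycin, 8.12 with both drugs and 8.23 in vehicle, a range within the SD of 0.30 among the vehicle arrays. With the block, C5.2 with rapamycin had a limma adjusted p of 0.0318 against vehicle.

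SMS, spermine synthase, gave no call under any drug. In HB4a with doxorubicin it was 7.89, 7.94, 7.55, 7.35 and 7.59, against 8.12, 8.12, 7.84, 8.25 and 7.96 in vehicle, the largest of its drug differences at -0.40 ± 0.17 (SE; limma adjusted p = 0.139). Every experiment was lower with doxorubicin than its vehicle array, and the limma adjusted p with the block was 0.0237. In C5.2 the doxorubicin difference was -0.31 ± 0.21 (limma adjusted p = 0.575, and 0.0457 with the block), and it was -0.18 without doxorubicin array 2 and -0.44 without doxorubicin array 4. In SKBR3 its 4 group means lay between 6.98 and 7.16.

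**Figure D2:**
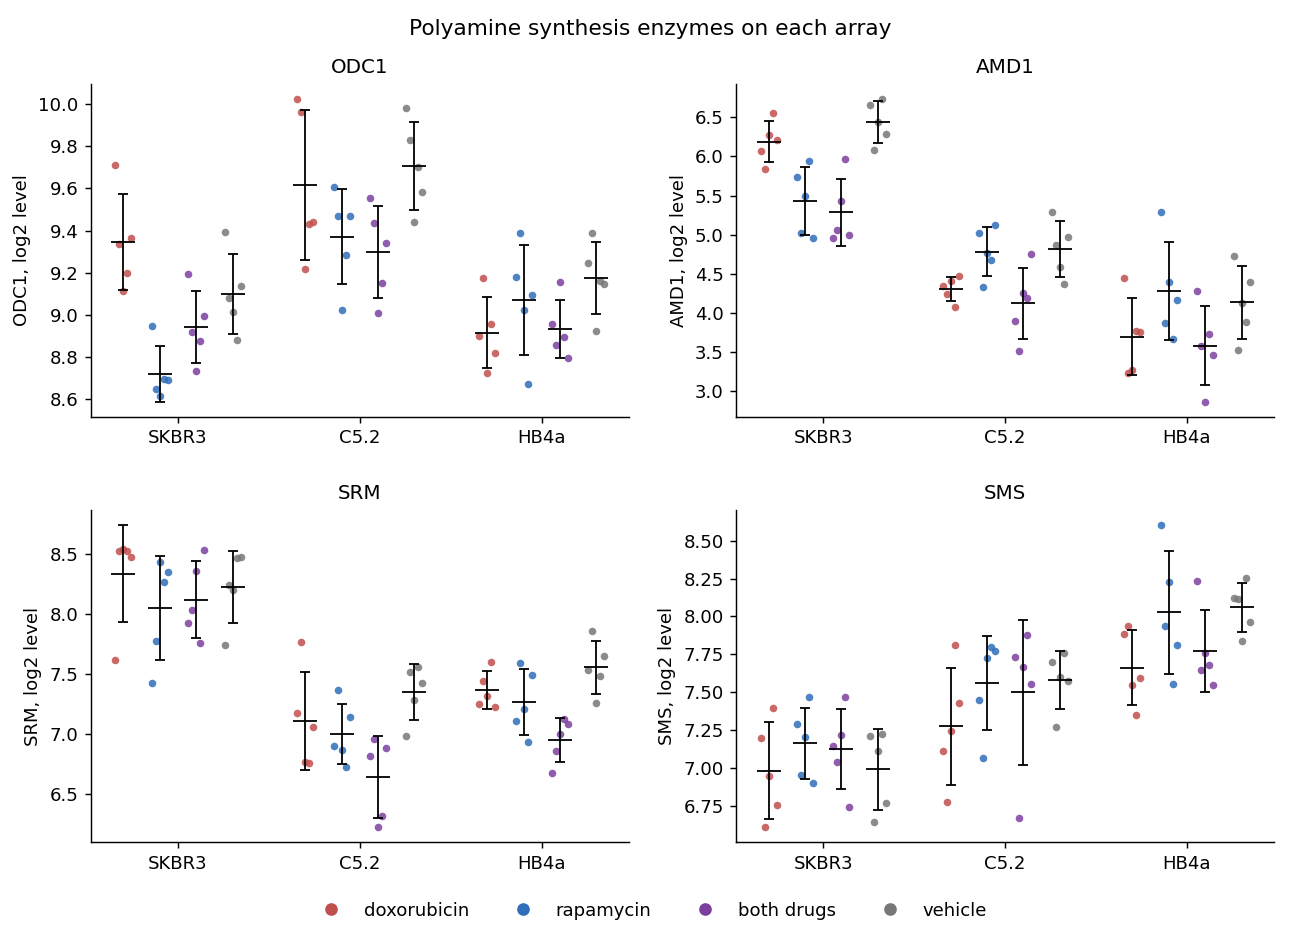
Log2 levels of ODC1, AMD1, SRM and SMS on each of 60 arrays (points), by cell line on the horizontal axis and by treatment in colour; lines give the mean and bars the SD of 5 arrays. In SKBR3 the AMD1 points with rapamycin and with both drugs lie between 4.96 and 5.97, under the vehicle points at 6.09 to 6.73.

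SAT1, spermidine/spermine N1-acetyltransferase, is the inducible first step of catabolism. In SKBR3 it was 8.82, 8.82, 8.97, 8.88 and 8.68 with rapamycin and 8.88, 8.73, 9.21, 8.88 and 8.78 with both drugs, against 7.68, 7.65, 7.95, 7.78 and 7.86 with doxorubicin and 7.33, 7.27, 7.80, 7.59 and 7.41 in vehicle. The arrays with rapamycin stood clear of all arrays without it. The difference from vehicle was 1.36 ± 0.10 (SE; limma adjusted p = 3.02e-08) with rapamycin and 1.42 ± 0.10 (limma adjusted p = 1.75e-08) with both drugs, and both drugs against doxorubicin gave 1.11 ± 0.10 (limma adjusted p = 7.07e-07). Doxorubicin alone gave 0.31 ± 0.10 (limma adjusted p = 0.297), with every experiment above its vehicle array and a limma adjusted p of 0.0064 with the block. Without SKBR3 vehicle array 3, the highest of its group, the rapamycin difference was 1.44 and that of both drugs 1.499.

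In C5.2, where SAT1 was lowest, it was 6.82, 6.53, 7.28, 7.05 and 7.09 with rapamycin and 7.30, 6.93, 7.43, 7.29 and 7.44 with both drugs, against 6.57, 5.87, 7.08, 6.75 and 7.08 with doxorubicin and 6.08, 6.01, 6.497, 6.19 and 6.44 in vehicle. Rapamycin gave 0.71 ± 0.19 (SE; limma adjusted p = 0.0149; 1.64-fold higher) and both drugs 1.03 ± 0.19 (limma adjusted p = 0.000876; 2.05-fold higher), with no overlap with vehicle in either comparison. Doxorubicin gave 0.43 ± 0.19 (limma adjusted p = 0.292, and 0.0044 with the block); its array 2 was below the vehicle group and the other arrays above it. Of the separate SAT1 probe sets, 1 passed there, at 0.58 (limma adjusted p = 0.0469), and the other gave 0.18 with overlapping groups. Both drugs exceeded doxorubicin by 0.60 ± 0.19 (limma adjusted p = 0.0408), a call lost without any 1 of 7 arrays (vehicle 4, doxorubicin 1 and 2, both drugs 1, 3, 4 and 6), with differences down to 0.40 and a limma adjusted p up to 0.103. Both drugs against rapamycin had a limma adjusted p of 0.43 without and 0.0188 with the block.

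In HB4a, SAT1 was 7.94, 8.22, 7.91, 7.66 and 7.37 with doxorubicin, 7.74, 7.69, 7.72, 7.63 and 7.44 with rapamycin and 8.13, 7.90, 8.001, 7.98 and 7.65 with both drugs, against 7.43, 7.42, 7.14, 7.68 and 7.12 in vehicle. Doxorubicin gave 0.46 ± 0.14 (SE; limma adjusted p = 0.0356; 1.38-fold higher), with overlapping groups; the call was lost without any 1 of 7 arrays (vehicle 1, 2, 3 and 6, doxorubicin 1, 2 and 3), with differences down to 0.36 and a limma adjusted p up to 0.118. With the block its limma adjusted p was 0.0021. Both drugs gave 0.57 ± 0.14 (limma adjusted p = 0.00666; 1.49-fold higher). Rapamycin alone gave 0.28 ± 0.14 (limma adjusted p = 0.35). With doxorubicin, the separate SAT1 probe sets gave 0.27, with overlapping groups, and 0.54, without overlap.

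The 12 SAT1 group means ran in this order: SKBR3 with both drugs at 8.90 and with rapamycin at 8.84, HB4a with both drugs at 7.93 and with doxorubicin at 7.82, SKBR3 with doxorubicin at 7.78, HB4a with rapamycin at 7.64, SKBR3 vehicle at 7.48, HB4a vehicle at 7.36, then C5.2 with both drugs at 7.28, rapamycin at 6.95, doxorubicin at 6.67 and vehicle at 6.24. From HB4a with both drugs down to C5.2 with both drugs, neighbours differed by less than the larger of their SDs, except SKBR3 with doxorubicin and HB4a with rapamycin, whose arrays overlapped. The step from SKBR3 with rapamycin to HB4a with both drugs is larger than either group's SD of 0.11 and 0.18. The 2 other SAT1 probe sets rose by 1.30 and 1.43 with rapamycin in SKBR3 and by 1.26 and 1.40 with both drugs. A further probe set shared by ZSWIM8 and SAT1 averaged 0.96 over all arrays, below the median of every array, and is not used.

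**Figure D3:**
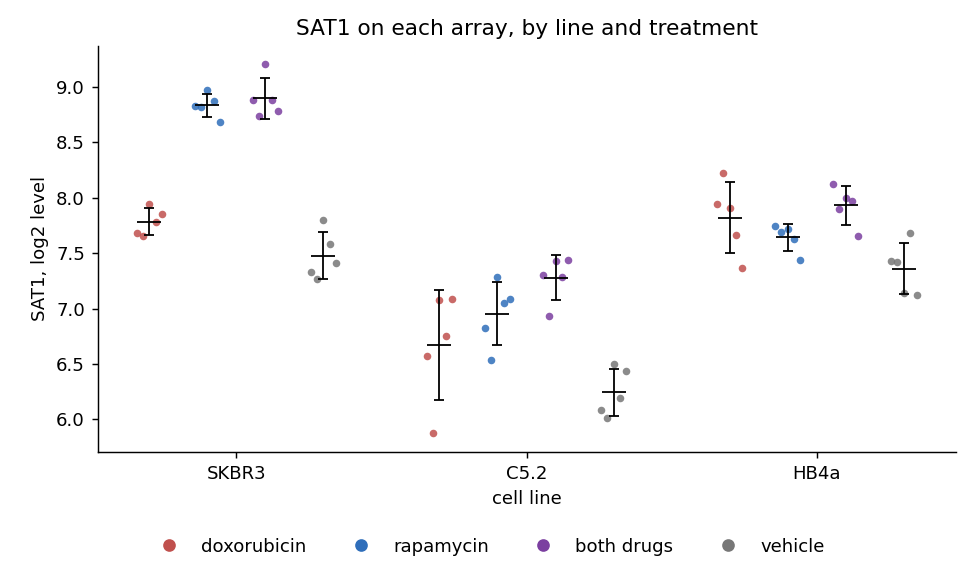
Log2 level of SAT1 on each of 60 arrays (points) by cell line and treatment, with the mean (line) and SD (bar) of 5 arrays. The SKBR3 arrays with rapamycin or both drugs lie at 8.68 to 9.21, above all other arrays, and the C5.2 vehicle group has the lowest mean, 6.24.

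SMOX, spermine oxidase, followed no such pattern. In HB4a it was 4.51, 5.19, 5.30, 5.02 and 5.28 with both drugs, against 5.49, 5.45, 5.68, 5.88 and 5.67 in vehicle. The groups did not overlap, and the difference was -0.57 ± 0.18 (SE; limma adjusted p = 0.0255), lost without any 1 of 5 arrays (vehicle 3, 4 and 6, both drugs 1 and 4; limma adjusted p up to 0.0702). In C5.2 the means were 6.21 with doxorubicin, 5.83 with rapamycin, 5.81 with both drugs and 6.22 in vehicle, so the lower groups were those with rapamycin. The differences from vehicle there were -0.39 ± 0.15 with rapamycin (limma adjusted p = 0.0766, and 0.0028 with the block) and -0.41 ± 0.15 with both drugs (limma adjusted p = 0.0549). In HB4a, rapamycin gave -0.44 ± 0.18 (limma adjusted p = 0.213, and 0.0121 with the block). In SKBR3, SMOX lay below the filter and was not tested, with means of 3.26 with doxorubicin, 3.38 with rapamycin, 3.47 with both drugs and 3.19 in vehicle. The other 2 SMOX probe sets averaged 2.27 and 2.16 over all arrays and did not pass the filter.

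OAZ1, antizyme 1, spanned 10.41 to 11.28 over all arrays. In C5.2 it was 10.47, 10.58, 10.41, 10.44 and 10.51 with rapamycin, against 10.95, 10.88, 10.65, 10.65 and 10.64 in vehicle, with no overlap. The difference was -0.27 ± 0.06 (SE; limma adjusted p = 0.00471) with rapamycin and -0.21 ± 0.06 (limma adjusted p = 0.0166) with both drugs, the call for both drugs lost without C5.2 vehicle array 2 or C5.2 both-drug array 3 (limma adjusted p up to 0.0528). Its separate probe set gave -0.26 with rapamycin (limma adjusted p = 0.00296) and -0.23 with both drugs (limma adjusted p = 0.00577). Rapamycin gave -0.13 ± 0.05 in SKBR3 (limma adjusted p = 0.093, and 0.0212 with the block) and -0.14 ± 0.05 in HB4a (limma adjusted p = 0.13, and 0.0448 with the block). Both drugs in SKBR3 gave -0.11 ± 0.05 (limma adjusted p = 0.12, and 0.0349 with the block).

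OAZ2, antizyme 2, was 6.58, 6.87, 6.24, 6.29 and 6.55 with rapamycin in C5.2, against 6.91, 7.17, 6.71, 7.02 and 6.75 in vehicle. Each experiment was lower with rapamycin than its vehicle array. The difference was -0.40 ± 0.14 (SE; limma adjusted p = 0.0474), a call lost without any 1 of 13 arrays, with a limma adjusted p up to 0.139 (vehicle 1, 2, 4 and 6, doxorubicin 1, 3 and 6, rapamycin 1, 3, 4 and 6, both drugs 1 and 6). In HB4a, doxorubicin gave 0.22 ± 0.11 (limma adjusted p = 0.224, and 0.0467 with the block) and rapamycin -0.27 ± 0.11 (limma adjusted p = 0.244, and 0.0333 with the block), that is, opposite signs. The separate OAZ2 probe set gave 0.29 and -0.08 in those comparisons, and -0.23 with rapamycin in C5.2 (limma adjusted p = 0.0925).

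AZIN1, antizyme inhibitor 1, resembles ornithine decarboxylase but has no enzyme activity. It varied more between replicates than the antizymes: its SD within groups ran up to 0.77, in HB4a with rapamycin, where array 1 was 7.36 and the others 5.54 to 6.36. With both drugs in SKBR3 it was 5.91, 6.26, 6.21, 6.90 and 5.63, against 7.01, 6.32, 6.84, 7.18 and 6.33 in vehicle. Each experiment was lower with both drugs, the difference was -0.55 ± 0.22 (SE; limma adjusted p = 0.0707), and the limma adjusted p with the block was 0.0015. A separate AZIN1 probe set gave -0.24 in that comparison (limma adjusted p = 0.253), and in HB4a it was lower with both drugs than with rapamycin by -0.40 (limma adjusted p = 0.0474). A further AZIN1 probe set averaged 1.08 and did not pass the filter.

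**Figure D4:**
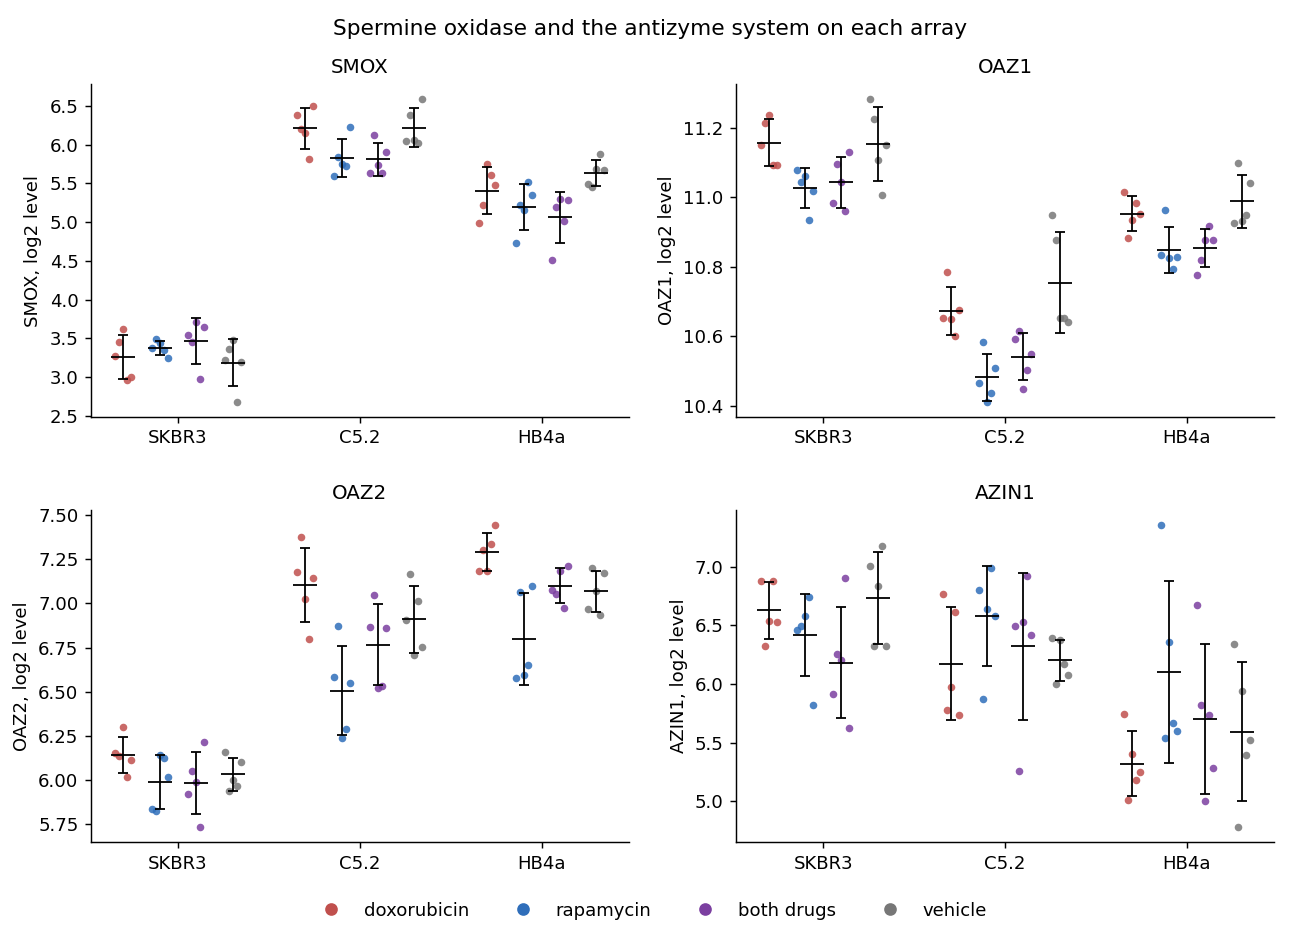
Log2 levels of SMOX, OAZ1, OAZ2 and AZIN1 on each of 60 arrays (points), by cell line on the horizontal axis and by treatment in colour, with the mean (line) and SD (bar) of 5 arrays; each panel has its own vertical scale. SMOX lies at 2.68 to 3.71 on the SKBR3 arrays and at 4.51 or more on the arrays of both other lines, and the C5.2 groups with rapamycin or both drugs have the lowest OAZ1 means.

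The drug pair was also set against each drug alone. Against doxorubicin, SAT1 was higher and ODC1 and AMD1 lower in SKBR3 (background 7.41% of all genes higher and 14.6% lower), SAT1 was higher in C5.2 (1.73% higher, 11.8% lower), and no member changed in HB4a (1.15% higher, 1.43% lower). Against rapamycin no member passed in SKBR3 (0.552% higher, 0% lower), in C5.2 (4.82% higher, 1.57% lower) or in HB4a (5.66% higher, 3.18% lower). With the block there were 5 members changed against doxorubicin in SKBR3 (49.6% of all genes) and 6 in C5.2 (38%), and against rapamycin 1 in SKBR3 (6.64%) and 3 in C5.2 (22.2%). In C5.2 the block added ODC1 (limma adjusted p = 0.00085), SRM (0.00755), SMOX (0.00265), OAZ1 (0.0187) and OAZ2 (0.0024) against doxorubicin, all lower with both drugs. Against rapamycin it added SAT1, SRM (0.0482) and OAZ2 (0.0208) in C5.2; SRM was lower and SAT1 and OAZ2 higher with both drugs. In SKBR3 it added OAZ1 (0.0316) and AZIN1 (0.00775) against doxorubicin, both lower with both drugs.

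On the log2 scale, limma called 0 of 24 departures of a member's response to both drugs from the sum of its single-drug responses, and 0 had an unadjusted p under 0.05. Over all genes the share called was 0% in SKBR3, 0% in C5.2 and 0% in HB4a, and 157 of 18436 tests had an unadjusted p under 0.05. That is fewer than the 1 in 20 that chance gives, so the test was conservative. The lack of calls does not show that the responses add up. For SAT1 the departures were -0.24 ± 0.15 (SE) in SKBR3, -0.11 ± 0.27 in C5.2 and -0.17 ± 0.20 in HB4a, all below zero and none past the test. With the block limma also called 0 of 24, against 1 of 6167 genes in HB4a and 0 in the other lines.

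Members differed between lines in vehicle in 20 of 26 tests, and between a drug and vehicle in 1 of 24 tests with doxorubicin, 6 of 24 with rapamycin and 8 of 24 with both drugs. At an unadjusted limma p under 0.05 the members gave 21 of 26, 6 of 24, 13 of 24 and 13 of 24, in that order. All genes gave 15391 of 21556, 2904 of 18436, 4785 of 18436 and 6201 of 18436. Line differences were thus the most frequent over all genes too. Nothing particular to the members is read from these counts. In vehicle, SKBR3 differed from C5.2 in 8 of 9 members, 4 higher and 4 lower (36.2% of all genes higher, 42.6% lower), and from HB4a in 7 of 9, 4 higher and 3 lower (37.6% higher, 39.7% lower). C5.2 differed from HB4a in 5 of 8 members tested, 2 higher and 3 lower (29.3% higher, 19.9% lower). These shares lie near those of all genes. The counts with SKBR3 include SMOX and AMD1, which entered those fits through the lines where they are high. Array medians were lower for SKBR3, by 0.17 on average than for HB4a and by 0.12 than for C5.2 in vehicle, and differences with SKBR3 are shifted downward by about that much relative to arrays centred on their medians.

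SKBR3 carried more RNA of the AMD1 and SRM steps and less of SMOX, SMS and OAZ2 than both other lines. SMOX averaged 3.19 ± 0.30 in SKBR3, 6.22 ± 0.25 in C5.2 and 5.63 ± 0.17 in HB4a (SD, n = 5 each). SKBR3 was thus lower than C5.2 by -3.03 ± 0.16 (SE) and than HB4a by -2.45 ± 0.17. AMD1 averaged 6.44 ± 0.26, 4.82 ± 0.35 and 4.14 ± 0.46 in the same order, with differences of 1.62 ± 0.21 from C5.2 and 2.30 ± 0.27 from HB4a. SMOX entered these fits through the lines where it is high and AMD1 through SKBR3, so these differences are given without a test. SMS was lower in SKBR3 than in HB4a by -1.07 ± 0.17 (limma adjusted p = 6.48e-07) and than in C5.2 by -0.59 ± 0.19 (limma adjusted p = 0.00588). OAZ2 was lower by -1.03 ± 0.10 (limma adjusted p = 1.65e-11) and -0.88 ± 0.12 (limma adjusted p = 2.56e-08) against the same lines. The separate OAZ2 probe set gave smaller differences, -0.26 ± 0.11 from HB4a (limma adjusted p = 0.034) and -0.36 ± 0.10 from C5.2 (limma adjusted p = 0.000844), with overlapping groups. SRM was higher in SKBR3 by 0.67 ± 0.18 against HB4a (limma adjusted p = 0.00119) and by 0.87 ± 0.21 against C5.2 (limma adjusted p = 0.000258).

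C5.2 differed from its parent HB4a most in SAT1. SAT1 averaged 6.24 ± 0.21 in C5.2 and 7.36 ± 0.23 in HB4a (SD, n = 5 each), a difference of -1.12 ± 0.17 (SE; limma adjusted p = 8.96e-07) with no overlap. SAT1 in SKBR3, at 7.48 ± 0.21, was above C5.2 by 1.23 ± 0.16 (limma adjusted p = 5.84e-09) and differed from HB4a by 0.12 ± 0.12 (limma adjusted p = 0.394), or by 0.29 ± 0.13 with each array centred on its median (limma adjusted p = 0.0411). ODC1 showed the converse order: C5.2 was above HB4a by 0.53 ± 0.14 (limma adjusted p = 0.00148), SKBR3 was below C5.2 by -0.61 ± 0.14 (limma adjusted p = 0.000133), and SKBR3 against HB4a gave -0.07 ± 0.12 (limma adjusted p = 0.57). SMOX was also higher in C5.2 than in HB4a, by 0.58 ± 0.16 (limma adjusted p = 0.0033). SMS was lower in C5.2 by -0.48 ± 0.19 (limma adjusted p = 0.0397), a call lost without any 1 of 6 arrays (HB4a 1, 2 and 4, C5.2 2, 3 and 6; limma adjusted p up to 0.106).

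OAZ1 was lower in C5.2 than in HB4a by -0.23 ± 0.05 (SE; limma adjusted p = 0.000407) and higher in SKBR3 than in C5.2 by 0.40 ± 0.06 (limma adjusted p = 5.06e-08) and than in HB4a by 0.17 ± 0.05 (limma adjusted p = 0.00249). AZIN1 was higher in SKBR3 than in HB4a by 1.14 ± 0.30 (limma adjusted p = 0.000791), but its probe sets disagreed: the separate one averaged 5.87 in SKBR3 and 6.29 in HB4a, a difference of -0.42 ± 0.14 (limma adjusted p = 0.00544), so no direction is given for the gene. C5.2 against HB4a gave 0.61 ± 0.32 for the brighter AZIN1 probe set (limma adjusted p = 0.108, and 0.0219 with the block).

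**Figure D5:**
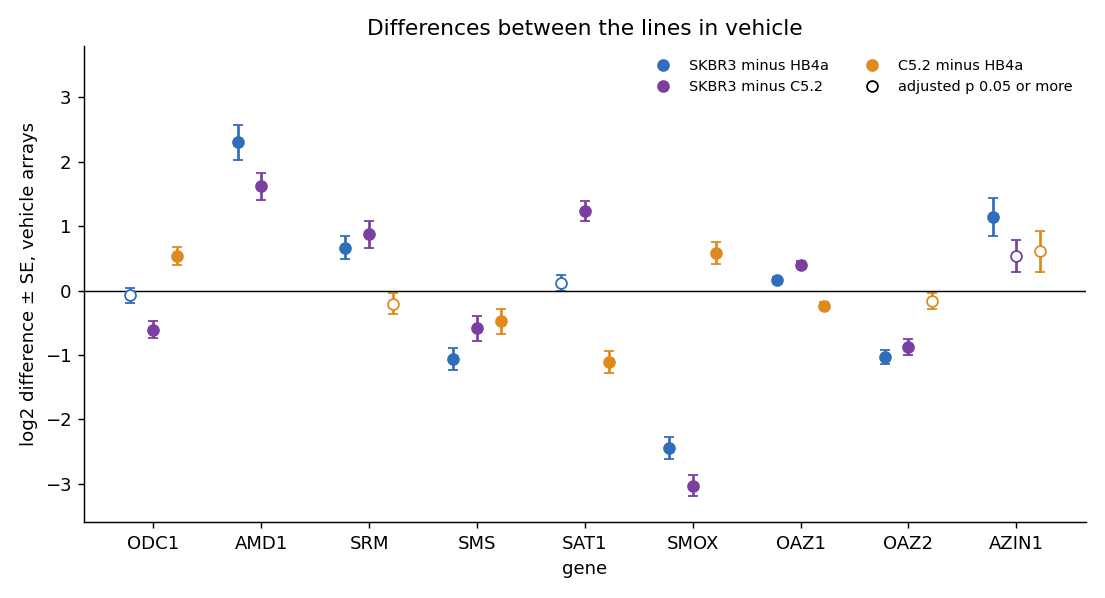
Log2 difference between lines in vehicle for each of the 9 genes: SKBR3 minus HB4a, SKBR3 minus C5.2 and C5.2 minus HB4a, as points with SE bars; open points have an adjusted p of 0.05 or more. SMOX reaches -3.03 and AMD1 2.30 in SKBR3, but their filled points against SKBR3 are not read as tests. SMOX entered those fits through the lines where it is high and AMD1 through SKBR3. AMD1 in C5.2 minus HB4a is not drawn because it did not pass the filter.

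Whether the drug responses themselves differed between lines was tested as a difference of differences. The SAT1 response to rapamycin was larger in SKBR3 than in HB4a by 1.08 ± 0.17 (SE; limma adjusted p = 5.46e-05), 1 of 9 members called (5.03% of all genes), and its response to both drugs was larger by 0.85 ± 0.17 (limma adjusted p = 0.000836). Against C5.2 the SAT1 rapamycin response of SKBR3 was larger by 0.65 ± 0.22 (limma adjusted p = 0.0758), which became 0.0483 without SKBR3 vehicle array 3. The SMOX response to both drugs was higher in SKBR3 than in HB4a by 0.85 ± 0.24 (limma adjusted p = 0.0184), making 2 of 9 members (9.82%), and than in C5.2 by 0.69 ± 0.22 (limma adjusted p = 0.0369), 1 of 9 members (12.3%). SMOX was below the filter in SKBR3, as given above. It entered these fits through C5.2 and HB4a, where it is high, so no difference in response is read from its calls. The SMOX difference from HB4a was lost without SKBR3 vehicle array 4, at 0.73 (limma adjusted p = 0.0506). That from C5.2 was lost without any 1 of 11 arrays, with a limma adjusted p up to 0.0982: SKBR3 vehicle 4 and 6, SKBR3 both drugs 1, 2, 3 and 6, C5.2 vehicle 2 and 6, and C5.2 both drugs 1, 3 and 4.

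The AMD1 response to rapamycin was lower in SKBR3 than in C5.2 by -0.97 ± 0.30 (SE; limma adjusted p = 0.0443), 1 of 9 members (6.23%), a call lost without any 1 of 15 arrays of the 4 groups compared, SKBR3 vehicle array 3 among them, with a limma adjusted p up to 0.0988. The separate AMD1 probe set gave -0.42 (limma adjusted p = 0.386). The same difference from HB4a was -1.15 ± 0.38 (limma adjusted p = 0.0775, and 0.00032 with the block), and it also passed with all 60 arrays in 1 fit. AMD1 lay below the filter in C5.2 and HB4a and entered these fits through SKBR3, where it is high. No difference in response is therefore read from its calls. With the block, members whose rapamycin response was called numbered 4 of 9 between SKBR3 and HB4a (22.5% of all genes) and 5 of 9 between SKBR3 and C5.2 (32.4%). From HB4a the block added AMD1, SMOX (limma adjusted p = 0.00439) and AZIN1 (0.0222), and from C5.2 it added SAT1 (8.97e-05), SMOX (0.00375), OAZ2 (0.0198) and AZIN1 (0.017). SMOX lay below the filter in SKBR3, and the AZIN1 calls are those of its brighter probe set. With rapamycin that probe set gave -0.32 in SKBR3, 0.37 in C5.2 and 0.51 in HB4a. The separate AZIN1 probe set gave -0.18, -0.13 and 0.07 in the same order.

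No member's response to doxorubicin was called without the block as different between SKBR3 and HB4a (3.87% of all genes), between SKBR3 and C5.2 (1.47%) or between C5.2 and HB4a (0.101%). The ODC1 response to doxorubicin was higher in SKBR3 than in HB4a by 0.50 ± 0.16 (SE; limma adjusted p = 0.0804, and 0.00248 with the block) and than in C5.2 by 0.34 ± 0.19 (limma adjusted p = 0.703, and 0.00635 with the block). With the block it was the member called in those comparisons, 1 of 9 in each, against 15.9% and 8.23% of all genes. No member's response to rapamycin (0%) or to both drugs (0.373%) was called as different between C5.2 and HB4a.

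Counted by probe set over 12 comparisons, those of drug with vehicle and of line with line, 60 of 164 tests of the 15 member probe sets that passed the filter in any of them were called, against 27.9% of tests over all probe sets. The members that passed did so in part through the line where they are high, and nothing is read from that count.

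Of the 6 other polyamine enzymes and antizymes listed, which include PAOX, SAT2 and the agmatinase AGMAT, at most 2 passed the filter in a line, and none differed from vehicle under any drug. AGMAT averaged 0.91 in SKBR3, 1.65 in C5.2 and 5.02 in HB4a in vehicle. It entered the fits between lines through HB4a alone and lay near or under the array medians in the other lines, so its levels are given without a test. SAT2, a relative of SAT1, was lower in SKBR3 than in C5.2 by -0.55 ± 0.09 (limma adjusted p = 1.23e-06) and than in HB4a by -0.75 ± 0.13 (limma adjusted p = 1.84e-06).

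Of 12 genes of precursor supply and salvage, 8 were tested in SKBR3 and 9 in C5.2 and in HB4a. ADI1, a dioxygenase of the methionine salvage pathway that recycles the by-product of spermidine and spermine synthesis, fell with rapamycin in all 3 lines: by 0.23 in SKBR3, 0.57 in C5.2 and 0.51 in HB4a on the log2 scale (limma adjusted p = 0.0418, 4.26e-05 and 0.00433). With doxorubicin ADI1 rose by 0.36 in C5.2 and 0.40 in HB4a. ENOPH1, the enzyme before ADI1 in that pathway, fell with both drugs by 0.44 in SKBR3, 0.52 in C5.2 and 0.63 in HB4a (limma adjusted p = 0.035, 0.0348 and 0.000797). Its groups overlapped in SKBR3, and in HB4a it also fell with doxorubicin alone, by 0.40 (limma adjusted p = 0.0328). ARG2, an arginase that yields ornithine, rose by 1.004 with doxorubicin and 0.66 with both drugs in HB4a. AHCY rose by 0.32 with both drugs in SKBR3. With rapamycin, 1 of 8 genes of this list passed in SKBR3, lower, 1 of 9 in C5.2, lower, and 1 of 9 in HB4a, lower.

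Of 12 genes of polyamine and arginine transport, 4 were tested in SKBR3 and 3 in each other line, and none passed with rapamycin. With both drugs SLC3A2, the heavy chain of amino acid exchangers, fell by 0.40 in C5.2 and 0.64 in HB4a (limma adjusted p = 0.00981 and 0.00689), SLC7A1, an arginine carrier, fell by 0.32 in C5.2, and SLC18B1 fell by 0.62 in SKBR3. GPC1, a glypican tied to polyamine uptake, rose by 0.53 with doxorubicin in HB4a. ATP13A3 averaged 5.29 in SKBR3, 3.05 in C5.2 and 2.91 in HB4a in vehicle, and it entered those fits through SKBR3, so no test is given. Of the hypusine pathway, which uses spermidine to modify EIF5A, 2 of 4 genes were tested per line and none differed from vehicle; EIF5A was lower with both drugs than with doxorubicin in SKBR3 by -1.13 ± 0.33 (limma adjusted p = 0.0198).

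Of 6 genes known to act on transcription or RNA stability of the members, MYC, which is known to drive ODC1, rose with rapamycin in all 3 lines: by 0.44 ± 0.14 in SKBR3 (SE; limma adjusted p = 0.0323), 0.77 ± 0.17 in C5.2 (limma adjusted p = 0.00488) and 0.64 ± 0.14 in HB4a (limma adjusted p = 0.0136). In SKBR3 the MYC groups overlapped, and ODC1 was lower with rapamycin. MYC also rose with both drugs in SKBR3, by 0.41 (limma adjusted p = 0.0397). With doxorubicin MYC fell by 1.01 in HB4a (limma adjusted p = 7.39e-05), where ODC1 gave -0.26 without passing. In vehicle MYC was lower in C5.2 than in HB4a by -0.96 (limma adjusted p = 5.41e-06), while ODC1 was higher there by 0.53. Any part of MYC in the ODC1 levels was not tested. MAX rose with rapamycin by 0.35 and with both drugs by 0.37 in SKBR3. Of the 5 genes of the list with a value, NFE2L2, ZFP36 and ELAVL1 gave no call against vehicle.

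The genes most like 4 of the members over the 12 group means, after each line's mean was subtracted, were found among 7713 genes and are given as a description. For SAT1 they were EIF3F (Pearson r = 0.9799), VPS51 (0.968) and UBXN1 (0.963). For AMD1 they were SLC25A32 (0.9795), TRA2B (0.973) and MRPL50 (0.972). For ODC1 they were DCLRE1B (0.969), PHF5A (0.957) and KDM2B (0.956), and for SMOX RAB20 (0.964), MEX3D (0.954) and DANCR (0.952). The 12 points share lines and arrays, and no test was made.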

How the data were processed

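RNA from 60 cultures was measured on Affymetrix arrays (5 per group). The authors deposited log2 levels per probe set made with RMA, a method of background correction, quantile normalization and probe summary that the submitters' processing notes name without a version; base 2 is inferred from the range of -0.600922 to 13.0807. No detection calls, scan dates or scanner files were used here. The number of arrays limits the precision. The p-values set group differences against the spread between arrays of a group, moderated over all genes tested. Without the block they leave out the pairing by experiment number.

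Probe sets were named from the platform table: 41091 carry 1 symbol, 1801 carry several and were left out, and each of 19775 genes is its brightest probe set. Genes with log2 above 5 on at least 5 arrays of a fit were tested with limma 3.58.1 (R 4.3.3; lmFit, eBayes with trend, 2-sided, Benjamini-Hochberg over all genes tested), within each line over 20 arrays and between lines over 40. Values are log2 differences with SE; the scripts were tested on simulated data. The figures were drawn with matplotlib 3.10.9 in Python 3.11.15. The members and lists were chosen with earlier results of these data known. Named are the 9 members, up to 3 called genes in each direction of each other list and comparison, and the 3 genes most like ODC1, SAT1, AMD1 and SMOX.

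Experiment numbers pair arrays where every same-numbered pair correlated above 0.1 in its deviations from the group means: all SKBR3 groups (lowest 0.24), HB4a with vehicle, doxorubicin and rapamycin (lowest 0.31), C5.2 except vehicle with both drugs (-0.10), and C5.2 with HB4a in vehicle (lowest 0.16). HB4a with both drugs (lowest -0.57) and SKBR3 with the other lines (-0.12 and -0.06) were not paired. Alternatives were the filter, probe set choice, scaling, weights, blocking, the arrays in the fit and each array left out.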

Additional observations from a re-analysis of the deposited data

Results flagged for a closer look

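In 108 groups of 5 arrays (9 genes in 12 groups), 4 arrays lay far from the rest of their group. Chance gives such an array in about 1 in 20 groups, so the 4 are no more than chance gives. ODC1 was 8.9491 on SKBR3 rapamycin array 1 and 8.62 to 8.70 on the others. SRM was 7.61479 on SKBR3 doxorubicin array 1 and 8.47 to 8.54 on the others. SMS was 6.66816 on C5.2 both-drug array 2 and 7.55 to 7.88 on the others. OAZ1 was 10.9636 on HB4a rapamycin array 2 and 10.79 to 10.83 on the others.

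Drug responses differed between lines in 5 of 78 tests of the members, against 4.42% of tests over all genes. The SAT1 response was larger in SKBR3 than in HB4a by 1.07564 with rapamycin and by 0.849195 with both drugs. The SMOX response to both drugs was higher in SKBR3 than in HB4a by 0.854708 and than in C5.2 by 0.688752, with SMOX below the filter in SKBR3. The AMD1 response to rapamycin differed by -0.972955 between SKBR3 and C5.2, with AMD1 below the filter in C5.2. No difference in response is read from the SMOX and AMD1 values, since each gene entered the fit through the line where it is high.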

How the results depend on the processing

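Of 44 calls among the members, 34 held with each array left out in turn and 36 under every other setting that tested them. Doxorubicin changed 1 of 24 member tests as reported, 0 with no filter and with repeated quantile normalization, 4 with array weights, 7 with the replicate block and 2 without the arrays that stood apart (a set chosen with the data known). Rapamycin changed 6 as reported, 11 with array weights and 13 with the block, and both drugs 8, 15 and 14. Both drugs against 1 drug gave 4 of 48, with 7 after centring each array on its median, 13 with array weights and 20 with the block. Responses that differed between lines were 5 of 78, with 3 under no filter, under the mean of all probe sets and under centring, 2 under a filter at log2 7, 13 with array weights and 22 with the block. The count of member probe sets changed was 60, and 94 with the replicate block. Calls over all genes rose with the block too: for responses from 4.42% to 18.4% of tests, and for rapamycin in C5.2 from 1097 to 2781 of 6292 genes. The share of all genes called with array weights is not given here. Nothing particular to the members is read from how these counts move. With 1 array left out, the counts ran from 0 to 2 for doxorubicin, 5 to 7 for rapamycin, 7 to 9 for both drugs, 3 to 6 for both drugs against 1, 0 to 0 for departures, 19 to 21 for lines and 2 to 6 for responses. For AZIN1 with both drugs in C5.2, not past the test as reported, leaving out 1 array gave -0.0011808 to 0.413089 against doxorubicin and -0.0303276 to 0.383942 against vehicle, with both lowest values without C5.2 both-drug array 4. The count of line differences ran from 14 to 22 over the settings. AMD1, SMOX and AZIN1 were not tested at log2 7, and SMOX and AZIN1 not under the mean of all probe sets, so of the 5 responses called 3 were not tested in the first and 2 in the second. Vehicle and both drugs were not paired in C5.2 and HB4a; the block there gave a limma adjusted p of 5.38e-05 for ODC1 and 0.00168 for SMOX in C5.2 and 0.0283 for OAZ1 in HB4a, and 0.0339 for the SAT1 response between them. Further, fits of only the groups compared give no departure, and a random block was not run within lines. The cause of these shifts was not tested. A filter at log2 3, the shared block for line comparisons and the random block were added after seeing the data.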
